A study of Mus musculus with 6 samples.

Results

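Psca, Meltf, Masp1, Tac2, Fndc5, Epop, Igf2bp1, Rab42 and Dmrt3 are 9 genes that were nearly silent in the small intestinal mucosa of control mice and gave more reads in the pools labelled Rbm47-IKO. They were chosen for that difference, from these same 6 pools, out of the 38561 features counted. The values that chose them, their levels and fold changes between the genotypes, are therefore given as a description with no test. What was tested is what the choice of the 9 did not use, namely the relatives and partners of each gene and its neighbours on the chromosome. The lists of relatives and partners were themselves drawn up with earlier results of these data known.

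The study deleted Rbm47, which encodes an RNA-binding protein, from the intestinal epithelium. It sequenced mucosal RNA, jejunal by its account, on an Illumina HiSeq instrument after oligo(dT) selection. There were 3 pools of genotype Rbm47_IKO and 3 of genotype wt, all of strain C57BL/6J, aged 8 to 12 weeks, each pool being, by the labels, RNA of 3 mice of both sexes. The labels call the controls wt, while the study's methods describe floxed mice without Cre, so both genotypes may carry the floxed allele. In the knockout the floxed allele is cut by a Cre under the villin promoter, which is active in epithelial cells, so the muscle, neurons, immune and stromal cells that come with scraped mucosa keep the gene. Because mice were pooled, the spread between pools is a spread between averages of several animals.

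The targeted gene, Rbm47 (ENSMUSG00000070780), was looked at first. The pools labelled Rbm47-IKO held 603, 625 and 620 CPM of it (counts scaled by edgeR's TMM library sizes, as throughout), beside 460, 450 and 472 CPM in wt. Its count was thus higher, not lower, in every pool labelled Rbm47-IKO, by 0.42 on the log2 scale (SE 0.10). This difference did not pass the threshold in edgeR's quasi-likelihood test (Benjamini-Hochberg adjusted p = 0.0751, ranging from 0.00105 to 0.356 over 14 other settings). Counts per gene cannot tell reads of the floxed part from reads of the rest. The total count of the gene thus went against the label, and every direction below is that of the pools as labelled. The study also assayed the deletion and several of the genes named here by other means. By its account the Rbm47 mRNA and protein, and the qPCR of Fndc5, Epop and Hoxb13, ran in the direction of the labels. Those measures are not analysed here. The study's main text names no qPCR result for Psca or Dmrt3, whose primers are printed below.

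The pools held 31560320 to 38951830 counts, and 16425 genes passed the expression filter. At an adjusted p of 0.05 or less, 2.7% of them differed, 1.45% higher and 1.25% lower in the pools labelled Rbm47-IKO. That count of 443 genes rested on single pools, falling to 0 without labelled knockout pool 2, 11 without wt pool 3, 32 without labelled knockout pool 1 and 119 without labelled knockout pool 3 (1729 to 2499 genes then had an unadjusted p under 0.05). An unadjusted p under 0.05 was reached by 16.8% of all genes tested, the share to set beside such counts for the gene lists below. The median log2 fold change over all genes tested was close to zero. Among 12 small intestinal enterocyte markers none passed (edgeR; 6 had an unadjusted p under 0.05), and their summed level was 56300 to 63000 CPM in the labelled knockout pools and 59300 to 62200 in the wt pools. The members went both ways, with 7 of the 12 having a log2 fold change above zero. Markers of gut region were looked at beside them. Of 8 ileal markers none passed (edgeR; 3 had an unadjusted p under 0.05), but 7 had a log2 fold change above zero, with a median of 0.59, and Fabp6, the ileal bile acid-binding protein, stood at 30.0 ± 10.7 CPM against 7.92 ± 8.10 in wt (SD, n = 3 each). The ileal marker below zero was Slc10a2, at 13.2 ± 4.84 CPM against 18.3 ± 22.7. The ileal sum was 3040 to 3520 CPM in the labelled knockout pools and 2670 to 3040 in wt. Muc3 made up most of it, at 2610 ± 221 against 2380 ± 264, so the sum says little of the other ileal markers. Of 8 proximal markers none passed (edgeR; 3 had an unadjusted p under 0.05), and 6 had a log2 fold change above zero, with a median of 0.17. Of the 3, Gata4, a transcription factor of the proximal gut, was at 168 CPM against 125 and Slc40a1, the iron exporter ferroportin, at 8.15 against 5.98, whereas Apoa4, a chylomicron apolipoprotein, was at 3360 ± 177 against 6760 ± 2140 and made up much of the proximal sums of 9780 to 11100 CPM against 9510 to 15300. The part of gut region in the values below was not tested. Smooth muscle markers were uneven within both genotypes. Their sum was 361, 586 and 3300 CPM in labelled knockout pools 1, 2 and 3 and 90.7, 2800 and 313 in wt pools 1, 2 and 3. Xist, which is expressed from the inactive X of female cells, stood at 75.6, 258 and 40.3 CPM in the labelled knockout pools and at 1.09, 150 and 0.686 in wt pools 1, 2 and 3. With 37 and 25 reads of Xist, wt pools 1 and 3 thus went against the label of both sexes, and the part of sex in the values below was not tested. In bulk mucosa, more cells of a type and more RNA per cell cannot be told apart, and that holds for each gene below.

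The 9 genes do unrelated work. Psca, Meltf, Masp1, Tac2 and Fndc5 encode surface or secreted proteins, whereas Epop, Igf2bp1 and Dmrt3 act in the nucleus or on RNA and Rab42 belongs to a family that directs vesicle traffic. Several are best known from other tissues or stages: Tac2 from hypothalamic neurons, Igf2bp1 from the embryo and from tumours, Dmrt3 from spinal interneurons and Epop from embryonic stem cells.

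In all 9 genes the lowest pool labelled Rbm47-IKO lay above the highest wt pool. A complete separation in this direction was seen in 11.7% of all genes tested, and since it follows from how the genes were chosen nothing is read from it. The highest level of any of the 9 in a wt pool was 1.32 CPM, and 7 of the 9 were at or under 1 CPM in every wt pool. The labelled knockout pools ran from 0.578 to 13.7 CPM. Summed over the 9 genes, the level was 45.2, 42.6 and 37.1 CPM in the labelled knockout pools and 2.38, 4.06 and 3.43 in the wt pools. The expression filter was reached by the wt pools on their own only for Fndc5 and Epop, so the other 7 genes entered the fit solely through the pools in which they were high.

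**Figure D1:**
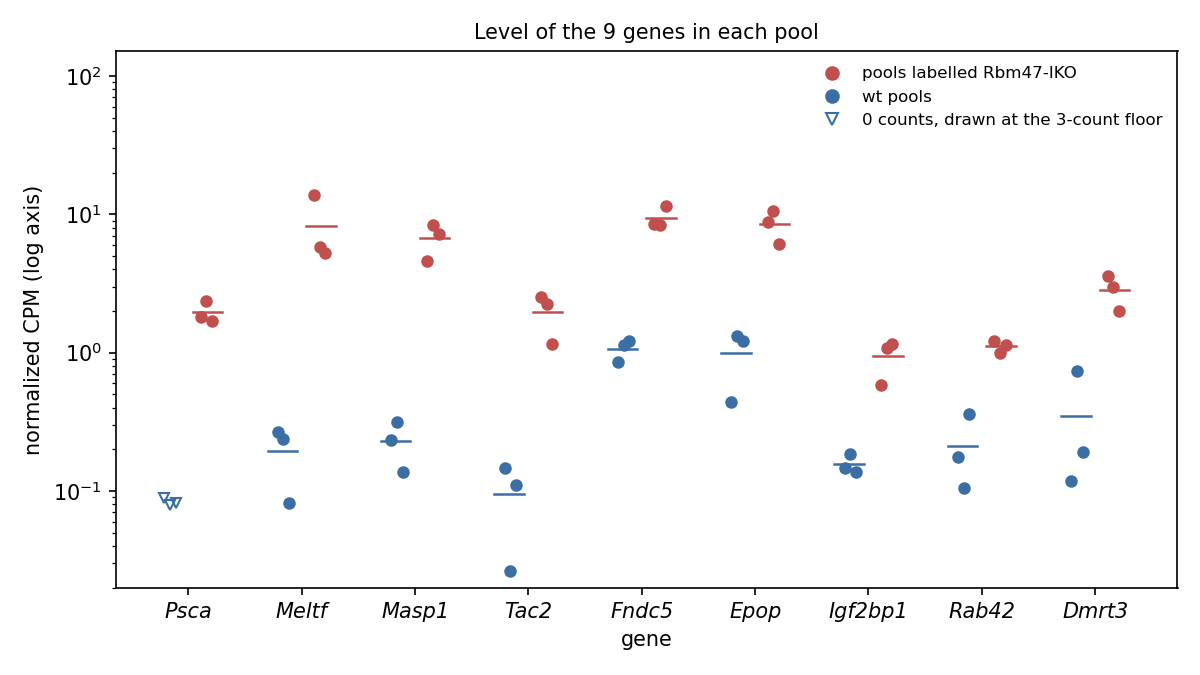
Normalized CPM (log axis) of the 9 genes in each pool labelled Rbm47-IKO (red) and each wt pool (blue), with the mean of 3 pools as a line; open triangles are pools with 0 counts, drawn at the level of 3 counts. The groups do not overlap for any of the 9 genes, and the gap is narrowest for Dmrt3, where wt pool 2 at 0.738 CPM lies closest to labelled knockout pool 3 at 1.99 CPM.

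Psca, prostate stem cell antigen, is a small GPI-anchored surface protein of the Ly6/uPAR family that is made in stomach, bladder and prostate epithelium. The gene (ENSMUSG00000022598, GRCm38 chr15:74714839-74717063, plus strand, 3 exons) had 63, 89 and 55 reads in the pools labelled Rbm47-IKO and 0 in every wt pool. It was the only one of the 9 without a single read in wt. Taking 3 counts as the most that a count of 0 allows, the mean of 1.95 ± 0.352 CPM (SD, n = 3) was at least 22.1-fold higher than the highest of the wt floors, and the lowest labelled knockout pool at least 19.1-fold higher. Such floors cover counting error only, as do the counting intervals given for the other genes.

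The study's own qPCR primers show where in the message it looked for Psca, and they are printed because the forward primer sits on a splice junction and so reads spliced RNA. Written 5′ to 3′ in lower case, with the bases of the later exon in capitals, the pair lies in the coding part, the forward primer across exons 2 and 3 (chr15:74716122-74716393) and the reverse in exon 3 (chr15:74716413-74716433), 55 bases apart end to end in the transcript.
Psca forward: cgcatccGGGCCATT
Psca reverse: actgtgagctgcagcccttac

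Stomach is the nearest tissue in which Psca is abundant, so stomach markers were looked at beside it. Of 11 found, 1 was tested and it did not pass (edgeR; 0 had an unadjusted p under 0.05). The sum was 4.16, 2.59 and 6.43 CPM in the labelled knockout pools and 4.23, 3.40 and 4.12 in the wt pools. It was nearly all Muc6, a gland mucin, at 3.90 ± 1.91 CPM against 3.40 ± 0.690, so it says little of the other gastric markers. Gkn1, a secreted gastric protein, had 6 reads in each labelled knockout pool and 0 in each wt pool, while Gkn2 had 1, 1 and 0 against 0, 1 and 0. In the other direction, Gkn3 had 2, 0 and 0 reads against 0, 8 and 3, and Atp4a, the gastric proton pump, had 10, 3 and 3 against 9, 15 and 8. The study describes the mucosa as jejunal, and the part of stomach cells in the Psca values was not tested.

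Among 17 tested Ly6/uPAR relatives of Psca none passed in either direction (edgeR; 2 had an unadjusted p under 0.05), and their median log2 fold change was -0.10. Those 2 were both higher, Ly6g6c at 1.65 ± 0.503 CPM against 0.451 ± 0.282 and Lypd6 at 1.54 ± 0.46 against 0.832 ± 0.247. The 2 Ly6/uPAR genes nearest to Psca on chromosome 15 were hardly expressed. Slurp1, a secreted Ly6 protein of skin and other surface epithelia, had 0, 0 and 2 reads in the labelled knockout pools and 2, 4 and 2 in the wt pools. Lypd2 had a single read, in wt pool 2. Both were too low to be tested.

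Meltf, melanotransferrin, is a GPI-anchored iron-binding protein of the transferrin family. The gene (ENSMUSG00000022780, chr16:31878810-31899020, plus strand, 16 exon blocks) had 476, 218 and 171 reads in the labelled knockout pools and 9, 9 and 3 in the wt pools. The mean was 8.25 ± 4.77 CPM against 0.195 ± 0.0983 CPM (SD, n = 3 each), and the summed levels stood in a ratio of 42.5, with a 95% counting interval of 27.6 to 69.0. Labelled knockout pool 1 was more than double each of the others, and the variance among these 3 pools was 96.0 times what counting alone gives, the widest spread of the 9 genes. Even so, the lowest labelled knockout pool was 19.8 times the highest wt pool. On the log2 scale the fitted difference was 5.38 (SE 0.57).

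Among the relatives of Meltf, the levels went both ways. Of 8 tested genes of transferrin-type iron binding and iron transport none passed (edgeR; 2 had an unadjusted p under 0.05), beside 2.7% of all genes, and 5 of the 8 had a log2 fold change above zero, with a median of 0.24. The 2 with an unadjusted p under 0.05 were Slc11a2, the iron importer of the brush border, at 76.9 ± 2.30 CPM against 62.0 ± 5.09, and Slc40a1 at 8.15 ± 0.782 against 5.98 ± 0.914. Trf, the plasma iron carrier, stood at 0.677 ± 0.219 CPM against 0.805 ± 0.458 in wt. Ltf, lactoferrin of secretions and neutrophils, stood at 0.871 ± 0.155 CPM against 1.31 ± 0.136. All these levels are means ± SD over 3 pools.

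Masp1 encodes a serine protease that, bound to mannose-binding lectins, starts the lectin pathway of complement. The gene (ENSMUSG00000022887, chr16:23451785-23520590, minus strand, 16 exon blocks) had 159, 314 and 234 reads in the labelled knockout pools and 8, 12 and 5 in wt. The mean was 6.68 ± 1.90 CPM against 0.230 ± 0.0896 CPM (SD, n = 3 each), a ratio of 29.2 (95% counting interval 19.6 to 45.4). No pool came near the other genotype, the lowest labelled knockout pool being 14.5 times the highest wt pool. On the log2 scale this was 4.84 (SE 0.40) in the fit. The locus makes several proteins by alternative splicing, and a count per gene does not separate them.

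Complement as a whole, lectin pathway included, gave 28 tested genes besides Masp1. None of the 28 passed (edgeR; 2 had an unadjusted p under 0.05), beside 2.7% of all genes, and their median log2 fold change was -0.05. Those 2 were both lower, Cfi, the protease that inactivates complement on cells, at 2.60 ± 0.251 CPM against 5.08 ± 0.731 and Cfb, of the alternative pathway, at 23.4 ± 4.10 against 33.3 ± 4.58. Masp2, the paralogous protease that cleaves complement components downstream, was at 0.243 ± 0.119 CPM against 0.256 ± 0.213. Mbl2, the mannose-binding lectin that these proteases ride on, was well expressed at 34.2 ± 13.4 CPM against 26.4 ± 3.82, and the pools overlapped. Mbl1, the other such lectin of the mouse, had 0 reads in all 6 pools.

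Tac2 encodes neurokinin B, the tachykinin that acts on the receptor Tacr3 and helps drive pulsatile release of gonadotropins. The gene (ENSMUSG00000025400, chr10:127724478-127731767, plus strand, 8 exon blocks) had 87, 85 and 38 reads in the labelled knockout pools and 5, 1 and 4 in wt. The mean was 1.97 ± 0.714 CPM against 0.0944 ± 0.0618 CPM (SD, n = 3 each), a ratio of 21.6. With only 10 reads in all wt pools together, the 95% counting interval of that ratio ran from 11.5 to 45.8. The lowest labelled knockout pool, pool 3, was still 7.91 times the highest wt pool, and the fit gave a log2 fold change of 4.36 (SE 0.58), which fell to 3.81 without the pools richest in Xist.

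Tachykinins are made by enteric neurons, whose marker RNA was uneven between pools. The summed level of 12 enteric neuron markers was 10.7, 14.1 and 49.8 CPM in the labelled knockout pools and 10.0, 45.7 and 15.6 in wt. None of the 11 neuron markers tested passed (edgeR; 1 had an unadjusted p under 0.05). The part of neurons in the Tac2 values was not tested.

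Of 7 tested tachykinin genes, receptors and partners other than Tac2 none passed (edgeR; 1 had an unadjusted p under 0.05), with a median log2 fold change of 0.03. Tac1, which encodes substance P and neurokinin A, had 148, 131 and 172 reads against 78, 196 and 56. The receptor of neurokinin B, Tacr3, had 2, 3 and 6 reads against 2, 12 and 2 and was too low to test. Tacr1, the substance P receptor, had 50, 66 and 108 reads against 46, 146 and 42, and Tacr2, the neurokinin A receptor of gut muscle, had 12, 25 and 91 against 3, 107 and 7. All of these overlapped, and the 3 receptors were highest in the pools with the most muscle and neuron RNA.

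Fndc5 encodes a membrane protein with a fibronectin type III domain, from which the hormone irisin is shed, and is known mainly from muscle and brain. The gene (ENSMUSG00000001334, chr4:129136999-129144593, plus strand, 6 exon blocks) had 292, 318 and 374 reads in the labelled knockout pools and 29, 43 and 44 in wt. The mean was 9.43 ± 1.75 CPM against 1.06 ± 0.187 CPM (SD, n = 3 each), a ratio of 8.75 (95% counting interval 7.21 to 10.7). The lowest labelled knockout pool was 6.95 times the highest wt pool. The fitted log2 fold change of 3.14 (SE 0.24) had the smallest standard error of the 9.

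The study's Fndc5 primers are shown because the reverse primer, like the forward primer of Psca, crosses a junction. They lie in the coding part of exon 3 (forward, chr4:129139505-129139522) and across exons 3 and 4 (reverse, chr4:129139539-129139860), a stretch of 57 bases, and capitals again mark the bases of the later exon.
Fndc5 forward: ccacgcgaggctgaaaag
Fndc5 reverse: CTCCTTCATGGTCACCTCATctt

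Of muscle, only smooth muscle markers were looked at beside Fndc5, and their RNA varied between pools as given above. Labelled knockout pool 3 was highest both for smooth muscle markers (3300 CPM) and for Fndc5 (11.5 CPM). Wt pool 2, with 2800 CPM of those markers, was at 1.13 CPM of Fndc5, between wt pool 1 (0.853) and wt pool 3 (1.21). The part of muscle in the Fndc5 values was not tested.

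Of 10 tested genes of the FNDC family and the irisin axis none passed (edgeR; 1 had an unadjusted p under 0.05), and their median log2 fold change was -0.07. Ppargc1a, the coactivator known to raise Fndc5 in exercised muscle, was at 131 ± 12.7 CPM against 142 ± 28.8. Fndc4, the closest paralog, had 8, 9 and 19 reads against 9, 18 and 2 and was not tested.

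Epop encodes a partner of Polycomb repressive complex 2, the enzyme that places the repressive H3K27 methyl mark, and links it to elongin. The gene (ENSMUSG00000043439, chr11:97627393-97629716, minus strand, 1 exon) had 303, 399 and 198 reads in the labelled knockout pools and 15, 50 and 44 in wt. The mean was 8.45 ± 2.25 CPM against 0.989 ± 0.477 CPM (SD, n = 3 each), a ratio of 8.51 (95% counting interval 6.97 to 10.5). The lowest labelled knockout pool was 4.60 times the highest wt pool, and wt pool 1 was well below the other wt pools. The fitted log2 fold change was 3.09 (SE 0.43).

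Having a single exon, Epop offers no junction to a primer pair, and the study's primers are printed to show this contrast with Psca and Fndc5. Both lie downstream of the coding part on the minus strand, forward at chr11:97628155-97628174 and reverse at chr11:97628096-97628115, 79 bases end to end.
Epop forward: tgagcgtcggacctcttcta
Epop reverse: gaatcgatgctccctcctgg

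Of 17 tested genes of Polycomb repressive complex 2 and elongin, 1 passed, lower, a share of 5.88% beside 2.7% of all genes called in either direction. In the same edgeR fit 4 of the 17, or 23.5%, had an unadjusted p under 0.05, beside 16.8% of all genes. Their median log2 fold change was 0.03. The one that passed was Lcorl, which encodes another accessory protein of the complex, at 38.6 ± 3.81 CPM in the labelled knockout pools against 67.4 ± 13.0 in wt (SD, n = 3 each). Its log2 fold change was -0.80 (SE 0.16, edgeR adjusted p = 0.0476), with every labelled knockout pool below every wt pool. The call held in 6 of 14 other settings, over which the adjusted p ran from 0.00049 to 0.242. With 1 pool left out it passed only without wt pool 2 (adjusted p = 0.0221).

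The core of the complex did not pass. Ezh2, its methyltransferase, was at 23.1 ± 0.914 CPM against 21.8 ± 2.01, and Suz12, a scaffold subunit, at 48.1 ± 5.69 against 59.2 ± 5.53 (edgeR adjusted p = 0.284). The elongin subunits Elob and Eloc were at 23.4 ± 3.44 against 20.7 ± 4.48 and at 10.7 ± 0.206 against 12.0 ± 2.10.

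Igf2bp1 encodes an oncofetal RNA-binding protein that stabilizes target messages and is abundant in the fetal gut. The gene (ENSMUSG00000013415, chr11:95957163-96005940, minus strand, 17 exon blocks) had 20, 41 and 38 reads in the labelled knockout pools and 5, 7 and 5 in wt. The mean was 0.941 ± 0.318 CPM against 0.156 ± 0.0249 CPM (SD, n = 3 each), a ratio of 6.00 (95% counting interval 3.57 to 10.7). The groups did not overlap, but labelled knockout pool 1 was only 3.13 times the highest wt pool. In the fit the log2 fold change was 2.56 (SE 0.43). A microRNA gene inside it, Mir3063, was the only other feature that overlapped any of the 9, and it had 0 reads in every pool.

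Its paralogs were more abundant and did not pass. Igf2bp2, the paralog kept in adult tissues, stood at 47.8 ± 2.09 CPM against 33.5 ± 4.67, with a difference of 0.51 on the log2 scale (SE 0.12, edgeR adjusted p = 0.0770). All its labelled knockout pools were above all wt pools. Igf2bp3 stood at 1.96 ± 0.302 CPM against 1.45 ± 0.507. Of 12 tested genes of the oncofetal RNA-binding and IGF list none passed (edgeR; 1 had an unadjusted p under 0.05), with a median log2 fold change of 0.06, and Lin28b, a fetal regulator of let-7, had 1, 0 and 2 reads against 0 in each wt pool.

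Rab42 is a small GTPase of the Rab family, whose members mark and move membrane compartments. The gene (ENSMUSG00000089687, chr4:132302197-132303385, minus strand, 2 exon blocks) had 42, 38 and 37 reads in the labelled knockout pools and 6, 4 and 13 in wt. The mean was 1.12 ± 0.106 CPM against 0.213 ± 0.130 CPM (SD, n = 3 each), a ratio of 5.24 (95% counting interval 3.33 to 8.60). The labelled knockout pools were the most even of any of the 9 genes, their variance being 0.367 times that of counting alone, and the smallest of them was 2.81 times wt pool 3. The fitted log2 fold change was 2.37 (SE 0.47), the smallest of the 9. Over the other settings it ran from 2.02 without the muscle-rich pools to 2.97 without wt pool 3.

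Of 54 other Rab genes tested, 1 passed, lower, a share of 1.85% beside 2.7% of all genes. In the same edgeR fit 13 of the 54, or 24.1%, had an unadjusted p under 0.05, beside 16.8% of all genes. Their median log2 fold change was 0.08. The gene that passed was Rab2a, which acts in traffic between the endoplasmic reticulum and the Golgi, at 65.2 ± 5.43 CPM against 114 ± 15.4 in wt (SD, n = 3 each). Its log2 fold change was -0.80 (SE 0.13, edgeR adjusted p = 0.0264), with no overlap between the groups. It passed in 7 of 14 other settings, over which the adjusted p ran from 1.97e-05 to 0.216. With 1 pool left out it passed without wt pool 1 (adjusted p = 0.0227) or wt pool 2 (0.0467), and not without wt pool 3 (0.0834) or any labelled knockout pool (0.0934 to 0.161).

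Dmrt3 is a DM domain transcription factor that specifies spinal interneurons of the locomotor network. The gene (ENSMUSG00000042372, chr19:25610537-25623920, plus strand, 2 exon blocks) had 124, 112 and 65 reads in the labelled knockout pools and 4, 28 and 7 in wt. The mean was 2.84 ± 0.802 CPM against 0.349 ± 0.339 CPM (SD, n = 3 each), a ratio of 7.96 (95% counting interval 5.69 to 11.4). Wt pool 2 stood apart from the other wt pools, and with it the lowest labelled knockout pool was only 2.70 times the highest wt pool, the narrowest gap of the 9. That pool was also the wt pool richest in smooth muscle and Xist RNA. Among the labelled knockout pools, pool 3, the richest in smooth muscle RNA, was lowest for Dmrt3 at 1.99 CPM. Pool 2, the richest in Xist, was at 2.96 CPM and pool 1 at 3.58 CPM. The part of muscle or sex in the Dmrt3 values was not tested. The fitted log2 fold change of 3.00 (SE 0.64) became 4.16 (SE 0.48) without wt pool 2.

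The primers for Dmrt3 are shown because both lie in exon 1 of 2, within the coding part, at chr19:25610924-25610941 and chr19:25610964-25610985, 62 bases end to end. As for Epop, no junction falls inside the pair.
Dmrt3 forward: gggccacaagcgctactg
Dmrt3 reverse: cgatgatcaggatgcacttctc

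Dmrt1 and Dmrt2 lie on either side of Dmrt3 on chromosome 19, and neither was expressed. Dmrt1, a factor of the male germ line, had 1, 0 and 0 reads against 0, 0 and 1, and Dmrt2 had 0, 1 and 0 against 0, 1 and 0. Of the DM domain family only Dmrta1 and Dmrta2 were tested, and neither passed (edgeR; 0 had an unadjusted p under 0.05), with a median log2 fold change of 0.13. Dmrta1, at 3.53 ± 0.838 CPM against 2.99 ± 0.565, was the family member with the most reads in wt.

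**Figure D2:**
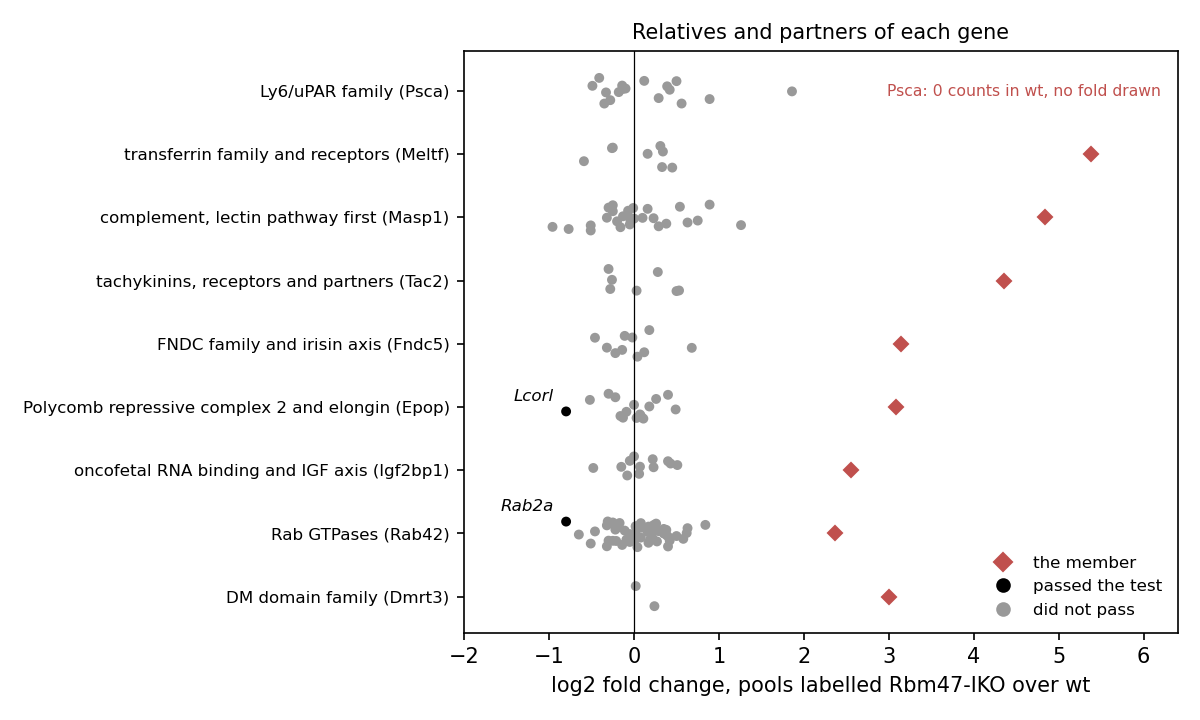
Log2 fold change (pools labelled Rbm47-IKO over wt) of every tested relative or partner of each of the 9 genes, 1 row per list; red diamonds are the gene the list is built around, black points passed the test and grey points did not. The lists centre near zero, between a median of -0.10 for the Ly6/uPAR family and 0.24 for the transferrin family, and only Lcorl and Rab2a passed, both at -0.80.

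Levels can be set against each other only per kilobase of transcript. On the RPKM scale the pools labelled Rbm47-IKO averaged 3.64 for Epop, 3.41 for Fndc5, 2.43 for Masp1, 2.28 for Psca, 2.24 for Tac2, 2.0 for Meltf, 1.47 for Rab42, 1.19 for Dmrt3 and 0.0972 for Igf2bp1. Neighbours in the upper part of this order do not differ beyond their spread, which was 0.968 for Epop, 0.635 for Fndc5, 0.689 for Masp1 and 1.15 for Meltf (SD, n = 3). Igf2bp1, the longest of the messages at 9682 counted bases, lay far under the rest. In the labelled knockout pools Epop thus had a higher RPKM than 54.8% of the genes tested, Psca than 45.5% and Igf2bp1 than 2.49%. In wt the corresponding shares were 16.1% for Epop and 0.0183% for Igf2bp1, while Psca had no reads.

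**Figure D3:**
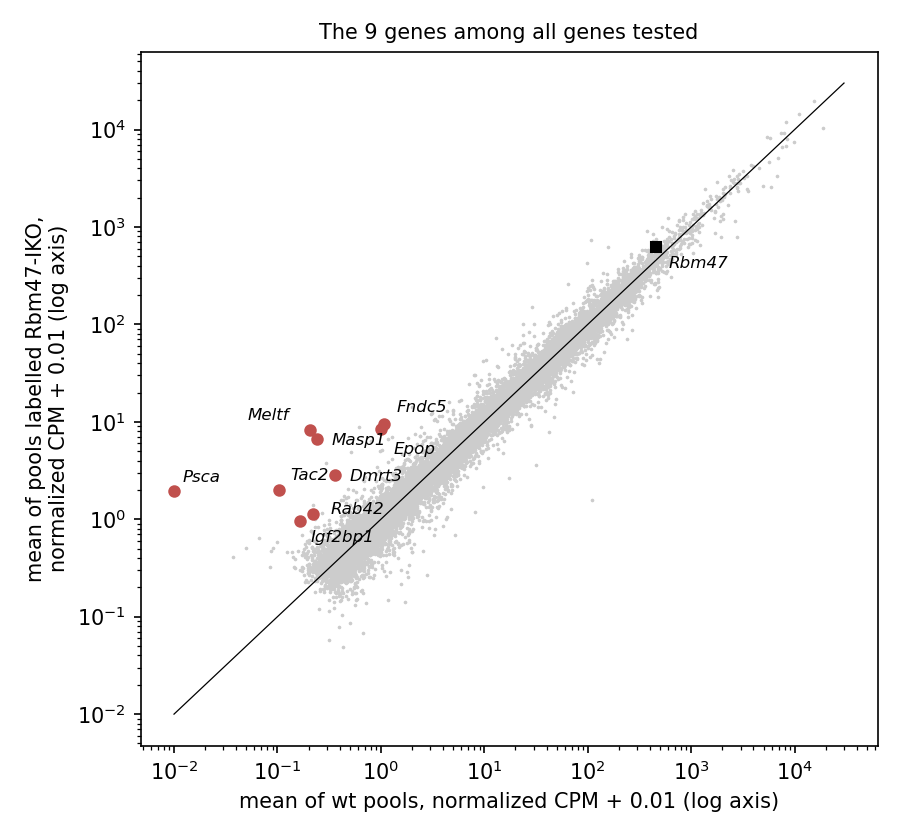
Mean normalized CPM plus 0.01 in the pools labelled Rbm47-IKO against that in the wt pools for all 16425 genes tested (grey, both axes log), with the 9 genes in red and Rbm47 as a black square; the line marks equal levels. The 9 genes sit above the line at the upper left edge of the cloud, from Psca with no wt reads to Fndc5 at 1.06 CPM in wt, and Rbm47 sits just above the line at 616 against 461 CPM.

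How common the pattern is was counted over all features in both directions. A gene was taken as near-silent when every pool of a genotype was at or under 2 CPM, and as separated when the lowest pool of the other genotype was at least 4 times the highest of the first, with 3 counts as the least level. Of 25912 features near-silent in wt, 10 were separated upward, or 0.0386%, and 6 of these are among the 9, namely Psca, Meltf, Masp1, Tac2, Fndc5 and Epop. Of 26044 near-silent in the labelled knockout pools, 2 were separated downward, or 0.00768%. Both bases include features with few or no reads in any pool, which could not separate, and these lower both shares. With a ratio of 2 in place of 4 the counts were 39 upward, with all 9 genes among them, and 34 downward. The counts of the 2 directions were thus closer at the looser ratio. Leaving out wt pool 1 or wt pool 2 at the ratio of 4 gave 21 and 18 upward and 11 and 4 downward, and leaving out labelled knockout pool 2 or 3 gave 5 and 6 downward. Igf2bp1, Rab42 and Dmrt3, whose gaps were 3.13, 2.81 and 2.70 times, lie just outside the ratio of 4, and Epop at 4.60 and Wnt3a at 4.17 just inside.

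The other upward genes by this likeness were Slc25a48, Igkv8-27, Hoxb13 and Wnt3a. Slc25a48, a mitochondrial carrier, had 230, 274 and 406 reads in the labelled knockout pools and 30, 14 and 21 in wt. Hoxb13, a homeobox gene of the posterior body and the distal colon, had 90, 134 and 169 against 0, 21 and 11. Wnt3a, a Wnt ligand, had 15, 15 and 12 against 1, 2 and 0.

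Igkv8-27 is an immunoglobulin light-chain variable gene, with 106, 219 and 196 reads against 9, 23 and 23, and reads of such genes can be shared among close copies. Downward, Clec2j, a C-type lectin-like gene, had 3, 6 and 17 reads against 109, 97 and 93. Cfap74, a gene of cilia and flagella, had 3, 3 and 2 against 20, 16 and 17. Hoxb13 is also a colon marker. The summed level of 10 colon markers was 357 to 403 CPM in the labelled knockout pools and 393 to 516 in wt, but B4galnt2, a glycosyltransferase, made up most of it, at 318 ± 20.8 against 379 ± 64.8. Retnlb, a goblet cell protein, had 43, 98 and 11 reads against 9, 32 and 13, and Car1 had 0 in every pool. The mucosa was jejunal by the study's account, and the part of colon cells in the Hoxb13 values was not tested.

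**Figure D4:**
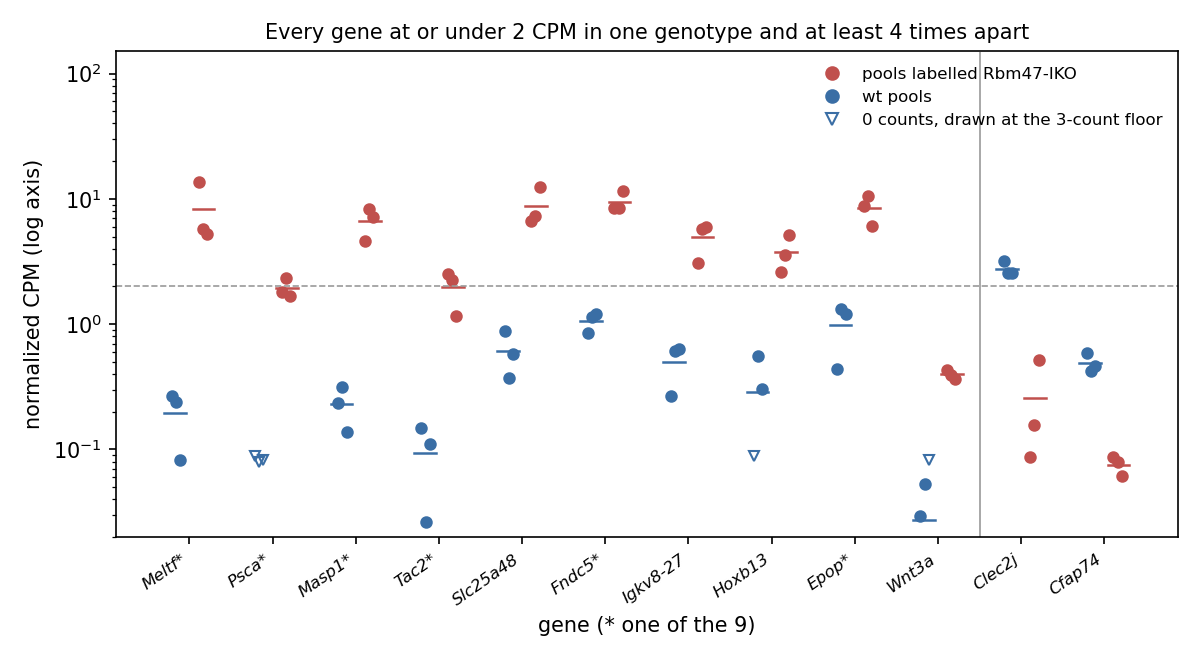
Normalized CPM (log axis) in each pool for the 10 genes near-silent in wt and separated upward (left of the vertical line, ordered by the size of the gap, the 9 genes starred) and the 2 genes in the opposite direction; red points are pools labelled Rbm47-IKO, blue points are wt pools, lines are means, open triangles are pools with 0 counts and the dashed line is 2 CPM. The widest gaps belong to Meltf (19.8 times) and Psca (19.1 times, against the floor), and the opposite direction holds Clec2j and Cfap74 alone.

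The pools labelled Rbm47-IKO did not rank alike across the 9 genes. Pool 1 was the highest for 4 genes, pool 2 for 3 and pool 3 for 2, while pool 3 was the lowest for 5. No single pool led all 9. Meltf was led by pool 1 and Fndc5 by pool 3, the pools with the least and the most smooth muscle RNA of that genotype. Because the genes were chosen for groups that do not overlap, leaving out a pool cannot turn their direction, and only the size of the fold change is of use there. Over all settings the narrowest range was that of Fndc5, 2.98 to 3.27 on the log2 scale, and the widest that of Dmrt3, 2.60 to 4.35.

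Base composition moved slightly with genotype over all genes. Over 10 equal groups of 16221 genes ordered by the GC content of their transcript, the median log2 fold change ran from -0.20 in the lowest to 0.15 in the highest. Taken on the longest transcript, the 9 messages spanned 48.0% GC for Masp1 to 66.9% for Epop. The longest Masp1 transcript has 5345 bases, beside 2752 bases counted for that gene. The share of base composition in the values of each gene was not tested.

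Position was not used to choose the genes, which lie on 6 chromosomes. Pairs that share one are Meltf and Masp1, Epop and Igf2bp1, and Fndc5 and Rab42, and the closest, Epop and Igf2bp1, are 1621452 bases apart. None of the 9 was among the 3 genes on either side of another. Of the 54 genes that flank them, 3 on each side, 26 were expressed enough to test and 1 passed, higher, a share of 3.85% beside 2.7% of all genes tested. Their median log2 fold change was 0.14, with 18 of the 26 above zero, and 6 had an unadjusted p under 0.05. The gene that passed was Nemp1, an inner nuclear membrane protein gene 3 places from Tac2, with 1484, 1583 and 1082 reads in the labelled knockout pools against 831, 851 and 965 in wt. Its log2 fold change was 0.68 (SE 0.13, edgeR adjusted p = 0.0434), and over 14 other settings it passed in 4, with an adjusted p from 0.00162 to 0.283. It did not pass with any of the 6 pools left out (adjusted p from 0.0527 to 0.240).

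Of the 9 tested genes 1 place from a member of the group, 8 had a log2 fold change above zero, with a median of 0.28, and 3 had an unadjusted p under 0.05 (edgeR), though none passed. Places follow gene order, not distance. Mir3063, inside Igf2bp1, holds a place, so Gip, the first gene beyond it (-0.76), is not among these 9. Beside Meltf the place is held by Gm24879 (-0.20), 131468 bases away, and not by Dlg1 (0.01), 5454 bases away. The farthest from zero of these 9 was Snhg12, a small nucleolar RNA host gene beside Rab42, at 4.81 ± 0.251 CPM against 2.92 ± 0.489, a log2 fold change of 0.72 (SE 0.21). Directly beside Tac2 lies Myo1a, the brush border myosin of enterocytes and by far the most abundant of these neighbours. It stood at 3130 ± 314 CPM in the labelled knockout pools against 2810 ± 392 in wt (SD, n = 3 each) and did not pass. Them6, beside Psca, was at 1.44 ± 0.0925 CPM against 1.14 ± 0.372, and S100pbp, beside Fndc5, at 20.4 ± 1.63 against 16.8 ± 0.573, and neither passed. The gene of the incretin hormone Gip, 18605 bases from Igf2bp1, was at 20.6 ± 2.09 CPM against 34.8 ± 9.06, which did not pass (log2 fold change -0.76, edgeR adjusted p = 0.0870). It is also an enteroendocrine marker, and all 12 markers of those hormone cells had a log2 fold change below zero, with 1 of them, Ghrl, past the threshold. That is 8.33% beside 2.7% of all genes, and 8 of the 12 had an unadjusted p under 0.05.

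**Figure D5:**
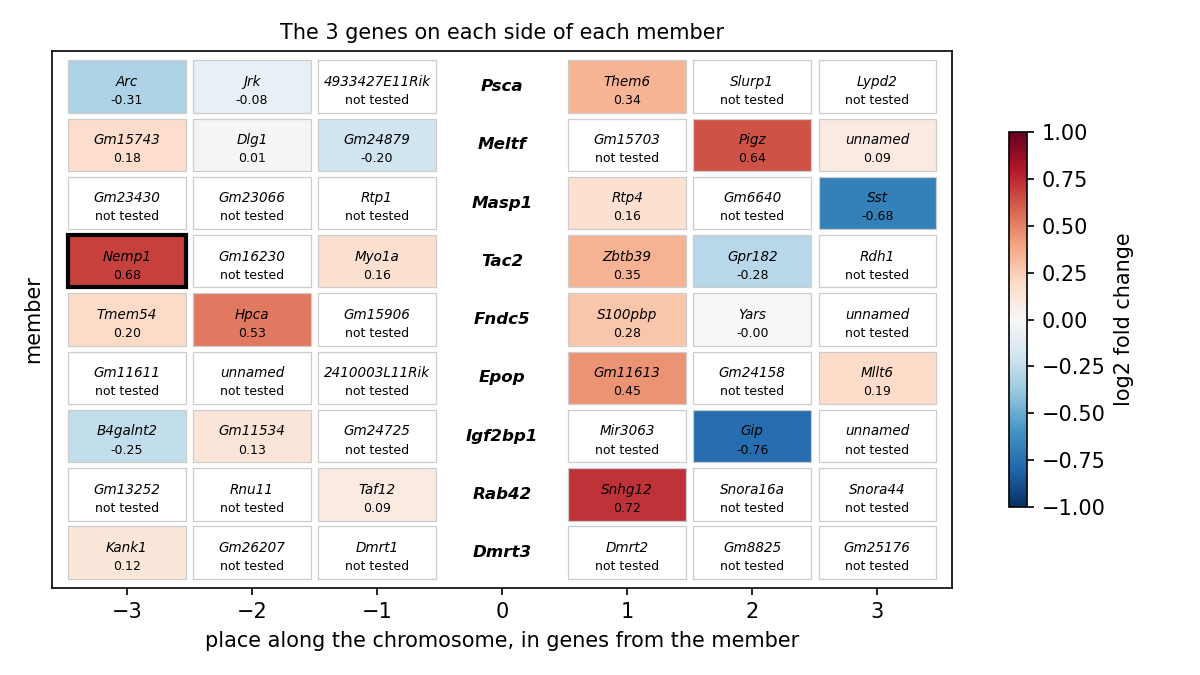
Each of the 9 genes (bold) with the 3 genes before and after it along its chromosome, coloured by log2 fold change between pools labelled Rbm47-IKO and wt; white boxes were too low to be tested and the heavy border marks the gene that passed. Nemp1 at 0.68 is the only one that passed, and the tested genes 1 place from the 9 lie between -0.20 and 0.72. Gip, the first gene beyond Igf2bp1 and the Mir3063 inside it, is at -0.76.

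Promoter windows from RefSeq (GRCm38.p6), 250 bases before to 50 after the start, were found for 5 of the 9 genes, Dmrt3, Fndc5, Meltf, Rab42 and Tac2. They are unlike each other. GC content was 82.3% for Fndc5, 70.7% for Dmrt3, 55.0% for Meltf, 51.7% for Rab42 and 48.3% for Tac2, beside a median of 52.7% over 32851 windows. The observed over expected ratio of CpG ran from 0.171 for Tac2 to 0.945 for Fndc5, with a median of 0.384 over all windows. The last 100 bases before the RefSeq start are printed for the windows richest and poorest in GC and for Rab42, whose match to the GC box, GGGCGG on either strand, is in capitals. They lie at chr4:129136899-129136998 on the plus strand, chr10:127724378-127724477 on the plus strand and chr4:132303357-132303456 on the minus strand. For Rab42 the RefSeq start lies inside the counted gene, so 29 of the printed bases belong to that gene, and the GC box spans its start.
Fndc5: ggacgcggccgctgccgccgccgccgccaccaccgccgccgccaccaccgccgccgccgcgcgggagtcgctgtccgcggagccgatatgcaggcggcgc
Tac2: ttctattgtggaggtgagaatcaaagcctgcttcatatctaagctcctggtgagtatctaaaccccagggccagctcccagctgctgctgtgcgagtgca
Rab42: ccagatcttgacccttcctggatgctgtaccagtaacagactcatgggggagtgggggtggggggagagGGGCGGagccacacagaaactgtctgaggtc

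Each motif was searched on both strands of the 5 windows, and no motif letters were shared by all. CCAAT was in 4 of the 5, beside 37.4% of all windows, GGGCGG in 2 beside 35.7%, and TATAAA in 1 beside 13.6%. CACGTG, which is in 7.15% of all windows, and TGACNNNGC, in 12.4%, were in 0 of the 5. A match describes the letters only.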

How the data were processed

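The authors deposited, for each of the 6 pools, a table of read counts per Ensembl gene, not normalized, with a CPM column and an RPKM column that the authors computed from those counts and the gene length. The submitters' processing notes name STAR 2.5.1a, Subread featureCounts 1.4.6-p5 and GRCm38, and strand use is not given in the sources used here. The authors' CPM and RPKM equalled values recomputed from the counts. CPM and RPKM in the text were recomputed with TMM library sizes.

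Genes passing filterByExpr were tested with the quasi-likelihood test of edgeR 4.0.16 in R 4.3.3 (limma 3.58.1), on genotype only, with Benjamini-Hochberg adjustment over all 16425 genes. DESeq2 1.42.0 was an alternative, beside other scalings and filters, a replicate block and each pool left out. Symbols were found for 36639 of 38561 features, and features without one held 0.369% of counts. Primers were placed on GENCODE M21 transcripts (GRCm38). Reads are not independent molecules. The smallest p of an exact permutation test on 3 against 3 pools is 0.1.

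Genes named were the 9 and Rbm47, list genes that passed, direct paralogs, receptors or partners, neighbours that passed or overlapped, and the other near-silent genes with the widest gaps. Igf2bp1-adjacent Gip, the genes directly beside Psca, Tac2 and Fndc5, Snhg12, Dlg1, Gm24879, Lin28b, Ly6g6c, Lypd6, Cfi, Cfb, Slc11a2, Slc40a1, Fabp6, Slc10a2, Muc3, Gata4, Apoa4, Dmrta1, Dmrta2, Clec2j, Cfap74, Gkn1, Gkn2, Gkn3, Atp4a, Muc6, B4galnt2, Retnlb, Car1 and Ghrl are not covered by it and were picked once their values were known. The 9 genes and all lists were chosen with earlier results of these data known.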

Additional observations from a re-analysis of the deposited data

How the results depend on the processing

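Against 443 genes called, 1243 were called by DESeq2, 100 with the replicate block and 0 without the pools richest in Xist (labelled knockout pool 2 and wt pool 2), where 2273 genes had an unadjusted p under 0.05. With 1 pool left out the count ran from 0 to 431, being 0 without labelled knockout pool 2 (1729 with an unadjusted p under 0.05), 32 without pool 1, 119 without pool 3 and 11 without wt pool 3. The pool numbers are not said to pair the pools. Same-numbered pools' deviations from their genotype means correlated at 0.424, -0.0382 and -0.319. Labelled knockout pool 3 correlated best with wt pool 2 (0.503), each the richest in smooth muscle RNA of its genotype. Such values cannot tell a pairing from a likeness in tissue content, so whether pools were paired is not settled. The 2 relatives and partners called (Lcorl and Rab2a) became 10 with DESeq2, 1 with RLE factors, 5 with library size alone, 4 with no filter, 0 with the replicate block, 1 without the muscle-rich pools, 0 without the Xist-rich pools and 0 to 3 with 1 pool left out (0 without any labelled knockout pool or without wt pool 3). These calls went both ways, 5 higher and 5 lower with DESeq2, 2 and 3 with library size alone and 1 and 3 with no filter. The 1 neighbour called became 2 with DESeq2, 0 with RLE factors, the replicate block, either pair of pools left out or any pool left out, 0 with 1 gene on each side and 3 with 5. The near-silent genes separated upward ran from 11 to 21 with 1 pool left out and those downward from 2 to 11, with fewer pools to satisfy, and stood at 39 and 34 with a ratio of 2. Of the 9 genes, 7 could not be fitted with a minimum of 10 counts in every pool, and the direction of all 9 was fixed by how they were chosen. Which cell types or sexes account for the lost calls was not tested. Depth limits the wt side of Psca, Tac2, Igf2bp1, Meltf and Rab42, with 0, 10, 17, 21 and 23 reads in all wt pools.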
